A study of Mus musculus with 3 samples.

Results

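The regions described here are the Notch2 peaks that stood near the top of both deposited peak lists of the mouse embryonic kidney. A peak is a stretch of the genome at which sequenced fragments were in excess after chromatin immunoprecipitation (ChIP-seq). The members were chosen by their place in the lists and by overlap: a replicate 1 peak was taken when it was among the first 1000 of its list and overlapped, by 1 bp or more, a peak among the first 1000 of the replicate 2 list. This gave 544 early shared peaks, or 1.90% of the 28651 peaks of replicate 1 and 5.75% of the 9469 that overlapped any replicate 2 peak. Their partners were 549 of the 12585 peaks of replicate 2, since 5 of the 544 overlapped a pair of early partners. The 8925 other overlapping peaks of replicate 1 served for comparison.

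Whole kidneys at stage E16.5 had been fixed with paraformaldehyde and precipitated with an antibody to Notch2 from Cell Signaling Technology. The Notch2 group had 2 samples, and 1 input sample of the same tissue and stage was not analysed here. The labels name no strain, genotype, treatment or number of pooled kidneys. They name no litters for the replicates, so that differences between them may be technical. The kidney holds many cell types, and strong occupancy in few cells cannot be told apart from weak occupancy in many. Read depth is unknown, because the lists hold positions and no counts.

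Notch2 is a cell-surface receptor that responds to Delta and Jagged ligands on neighbouring cells. On activation its intracellular domain is cut free, enters the nucleus and joins the DNA-binding protein RBPJ and a Mastermind coactivator at target genes, among them repressors of the Hes and Hey families. In the forming nephron, Notch2 is known for its part in the differentiation of nephron progenitors and in the formation of proximal segments.

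The lists give no height, fold enrichment or score, and the order of their rows is not explained in the sources used here. The working name of these regions calls them the strongest, which the files could not show directly. What could be read was width. Among the early shared peaks, later places went with narrower peaks, with a Spearman rho of -0.29 in replicate 1 and -0.40 in replicate 2 (544 peaks, a description). They are therefore called early, not strong. Because place and overlap chose them, their places, overlap and widths are given as descriptions with no test. Position in the genome entered the choice only through overlap between the lists, and nearness to other peaks was not part of the rule. With 1 list per replicate and peaks that are not replicates, no test was made on positions either, and the 95% Wilson intervals cover counting error only.

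Of the first 1000 peaks of replicate 1, 544 had an early partner, 389 overlapped a later peak of replicate 2, and 67 overlapped none. For the 389, the earliest overlapping peak of replicate 2 stood at a median place of 2191, with a range from 1001 to 12116. The first 1000 of replicate 2 divided into 549 partners, 408 that overlapped a later replicate 1 peak at a median place of 2202, and 43 that overlapped none. Most early peaks of one list that were left out had thus been called in the other list, further down. In the full lists, 9469 of 28651 peaks (replicate 1) and 9504 of 12585 (replicate 2) had a counterpart by overlap. Peaks without a counterpart made up 6.7% and 4.3% of the first 1000 places, a smaller part than in the full lists. The 67 replicate 1 peaks with no overlap were wide, with a median of 1606 bp, and lay a median of 24.0 kb from the nearest replicate 2 peak. The 43 of replicate 2 were narrower, with a median of 776 bp, and lay 8.69 kb from the nearest replicate 1 peak, with 7 of them within 1 kb.

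Within the first 1000 places, earlier peaks more often had an early partner. The shares are of all peaks at those places, with or without any overlap, and the rule itself used both places. Among the first 100 peaks of replicate 1, 95 were early shared peaks, and among the last 250 of the first 1000 it was 32.4%. In replicate 2 the first 100 held 92 partners and the last 250 held 35.6%. Within the 544, the Spearman rho between both places was 0.49, and among the 8925 other overlapping peaks rho was 0.54. The rule held both places of the 544 to the first 1000, so these values cover different ranges and cannot be compared. In all, 57 peaks stood among the first 100 of both lists. The earlier place was in replicate 1 for 264 of the 544 and in replicate 2 for 277.

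**Figure D1:**
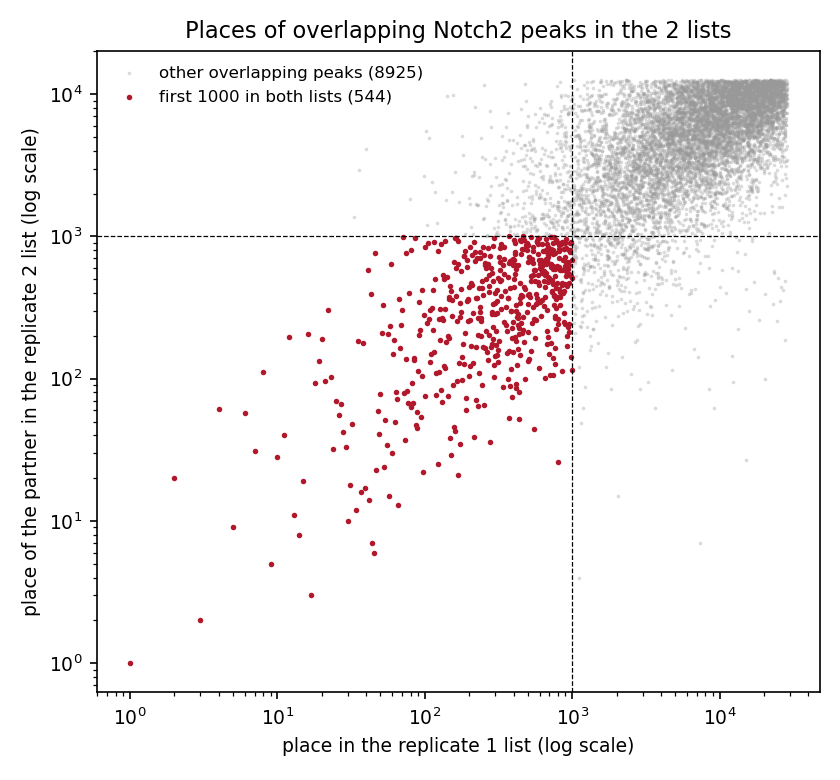
Each point is an overlapping replicate 1 peak, with its place in the replicate 1 list on the horizontal axis and the place of its partner in replicate 2 on the vertical axis, both on log scales. Dashed lines mark place 1000, the 544 early shared peaks fill the lower left corner, and the 8925 others lie beyond either line.

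Just inside the limit, a peak on chromosome 16 from 63642149 to 63643102 had places 462 and 999, with a width of 954 bp in replicate 1 against 626 bp for its partner. The last one inside, on chromosome 13 from 28508098 to 28510677, had places 372 and 1000, with 2580 bp and 962 bp. Just outside, peaks on chromosome 19 from 14964923 to 14966024 and on chromosome 3 from 101311336 to 101312388 had replicate 2 places of 1001 and 1003. The widths of these outer peaks were 1102 and 1053 bp, and those of their partners 1493 and 1438 bp. The replicate 1 widths of the sides interleaved, whereas in replicate 2 both outer peaks were wider than both inner ones.

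The 5 replicate 1 peaks that stood in the first 100 and yet fell outside the set, named after their values were seen, lay on chromosomes 7, 8, 9, 16 and 18. The widest of them, on chromosome 8 from 123898430 to 123902956, measured 4527 bp at place 33, and its partner measured 927 bp at place 1364. Among the first 100 of replicate 2, 8 were left out. The earliest of these, on chromosome 16 from 30008553 to 30009790, stood at place 4 in replicate 2 and its partner at place 1115 in replicate 1. Its width was 1238 bp and that of its partner 1290 bp, alike although far apart in place.

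The pair with the lowest sum of places was first in both lists. It lay on chromosome 14 from 23578225 to 23580634 in replicate 1 (2410 bp) and from 23578060 to 23580591 in replicate 2 (2532 bp). The next, 20.3 kb further along the same chromosome, had places 3 and 2. Its position was 23600900 to 23603642, and the widths were 2743 and 2352 bp. Chromosome 14 also held the peak from 23631960 to 23634926, at places 30 and 10, with 2967 bp and 2700 bp. The centres of these 3 pairs lay 104, 155.5 and 85.5 bp apart, against a median of 107.5 bp over the 544.

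Chromosome 2 likewise held 3 of the 12 pairs of lowest sum. The peak from 75954976 to 75957271 had places 5 and 9 and widths of 2296 and 2225 bp. A neighbour from 75935539 to 75938566 had places 13 and 11 and widths of 3028 and 2562 bp, with centres 64 bp apart. The third, from 11944534 to 11947160, had places 7 and 31 and widths of 2627 and 1628 bp. Here the replicate 1 peak was 1.61 times as wide, and the centres were 467.5 bp apart.

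A peak on chromosome 16 from 30063912 to 30067016 (3105 bp) stood at place 17 in replicate 1. Its partner from 30063489 to 30065786 (2298 bp) stood at place 3 in replicate 2. The shared part measured 1875 bp and the centres were 826.5 bp apart. From general knowledge of the mouse genome, and named after its values were seen, this part of chromosome 16 holds Hes1, which encodes a transcriptional repressor and is a classic target of Notch signalling. No mm9 annotation was used here, so the distance to the gene was not measured. This peak stood within a run of 8 overlapping peaks, from 30050537 to 30082613, and was the single early shared peak among them. Its nearest early shared neighbour lay 3782 kb away. In the same run the peak from 30059116 to 30061153 was at place 842 in replicate 1, and its partner at place 1387 kept it out of the set. The other 6 peaks of the run stood at places 1950 to 25916 in replicate 1.

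The remaining 5 of the 12 lay on 5 further chromosomes. On chromosome 10, the peak from 22772048 to 22773817 had places 9 and 5 and widths of 1770 and 1587 bp. On chromosome 17, the peak from 73424440 to 73425953 had places 14 and 8 and widths of 1514 and 1305 bp. On chromosome 13 the peak from 71408630 to 71412919 had the largest ratio of widths of the 12. It stood at places 2 and 20 with widths of 4290 and 1477 bp and centres 1449.5 bp apart. This replicate 1 peak overlapped 2 replicate 2 peaks, and the values are for its partner alone. The peak on chromosome 8 from 64462499 to 64466076 (places 15 and 19, 3578 and 2361 bp) and the one on chromosome 15 from 7574419 to 7577603 (places 10 and 28, 3185 and 1677 bp) contained their partners whole. The one on chromosome 8 also overlapped 2 replicate 2 peaks. In 11 of the 12 the replicate 1 peak was the wider, and in 7 of the 12 the centres lay within 250 bp.

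Early shared peaks were wide in both replicates. Their median width was 1315 bp in replicate 1, with quartiles at 1043 and 1776 bp and extremes of 625 and 4486 bp. In replicate 2 it was 1065 bp, with quartiles at 870 and 1407 bp and extremes of 625 and 4101 bp. The other overlapping peaks had medians of 761 bp and 629 bp. No early shared peak had the narrowest width of 500 bp in either replicate. That width was held by 16.6% of the others in replicate 1 and by 42.4% of their partners. It was rare among early peaks in general, shared or not. Of the first 1000 places, 1 peak of replicate 1 and 10 of replicate 2 had it. Widths over 2000 bp were found in 89 of the 544 in replicate 1, in 39 in replicate 2 and in 29 in both. Among the 8925 others the counts were 156 in replicate 1, 49 in replicate 2 and 4 in both.

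Widths of a pair were related, with a Spearman rho of 0.56 over the 544 and 0.36 over the 8925 others. The narrowest width of 500 bp was held by 16.6% of the others and 42.4% of their partners, but by no early shared pair. The rho values therefore cover different ranges of width and cannot be compared. The replicate 1 peak was the wider in 77.6% of the 544 and in 65.8% of the others. The partner was the wider in much the same share of both, 22.2% and 22.9%, and widths were equal in 1 of the 544 and in 11.3% of the others. The median ratio of widths, replicate 1 over replicate 2, was 1.17 against 1.25 in the others. Single pairs departed far from this. On chromosome 4 from 31920350 to 31923426 the replicate 1 peak measured 3077 bp and its partner 626 bp, a ratio of 4.92. On chromosome 16 from 26183415 to 26184174 it measured 760 bp and the partner 2562 bp, a ratio of 0.297. The first pair stood at places 381 and 435, and the second at places 655 and 373.

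Centres of early shared peaks lay a median of 107.5 bp from those of their partners, against 80.0 bp in the others. They lay within 100 bp for 46.9% of the 544 (95% Wilson interval 42.7 to 51.1%) and for 59.2% of the others (58.2 to 60.2%). Read as a share of width, the order turned over the whole sets, but by width class it did not turn in the narrowest. The distance was a median of 8.36% of the replicate 1 width in the early shared peaks and 10.5% in the others. Among peaks of 1500 bp and wider, the median was 172.5 bp for 213 early shared peaks and 375 bp for 561 others. In the class from 850 to under 1500 bp it was 90.0 bp and 102 bp, with 291 and 2686 peaks. In the class from 500 to under 850 bp, which held 40 early shared peaks, it was 89.5 bp and 66.0 bp. The partners differed in width too. In the widest class they had a median of 1445 bp for the early shared peaks and 703 bp for the others.

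**Figure D2:**
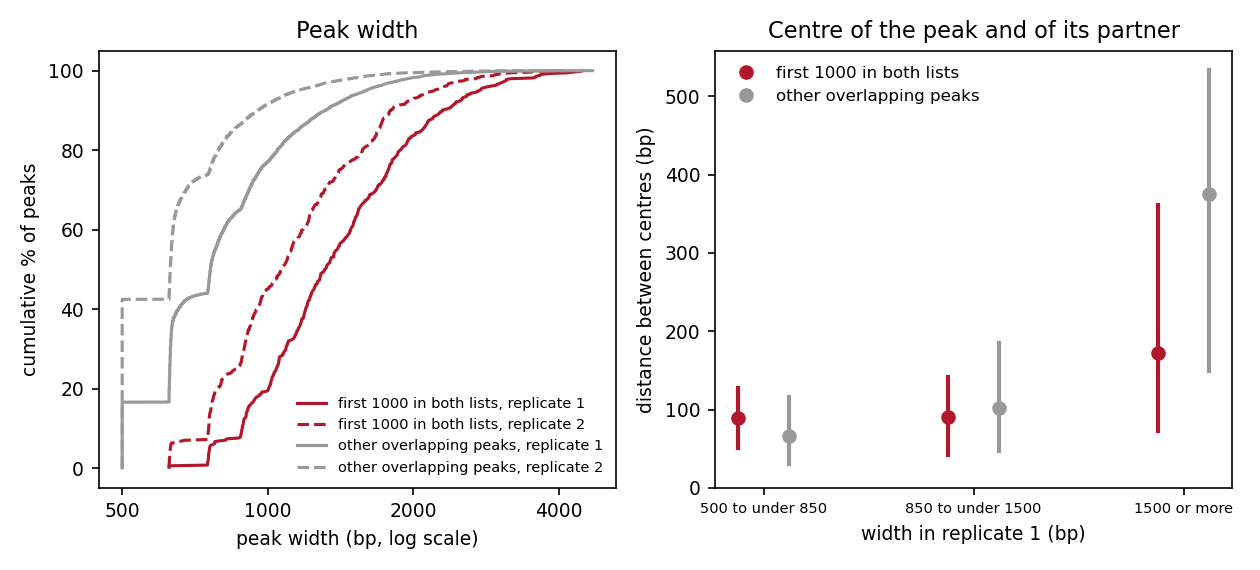
The left panel gives the cumulative percentage of peaks by width in bp on a log scale, for the 544 early shared peaks (red) and the 8925 others (grey), with solid lines for replicate 1 and dashed lines for the partners in replicate 2. The right panel gives the median (points) and interquartile range (lines) of the distance between the centres in bp by width class. In the widest class the median was 172.5 bp for the early shared peaks and 375 bp for the others. In the narrowest class it was 89.5 bp and 66.0 bp.

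The edges were not placed alike. At the left edge, the partner began a median of 103.5 bp further in (interquartile range -22 to 279 bp), and at the right edge it ended 76.5 bp earlier (-155.5 to 12.3 bp). In the others the left edge was shifted by a median of 34 bp and the right edge by -74 bp, so that the sets differed at the left edge and hardly at the right. The partner lay wholly inside the replicate 1 peak in 271 pairs (49.8%) against 39.9% of the others. The reverse held in 42 (7.72%) against 8.54%. Overlap covered at least 50% of both peaks in 88.4% of the early shared pairs and 87.7% of the others.

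Some peaks were entered on more than one row of a list, and the repeats were dropped before places were counted. Of the 544 early shared peaks, 93 had a partner that replicate 2 listed more than once, a share of 17.1% (95% Wilson interval 14.2 to 20.5%), against 3.73% of the others. In replicate 1 the shares were 2.94% and 1.33%. Repeats went with width. Among partners over 2000 bp, 31 of 39 of the early shared peaks and 44 of 49 of the others were repeated in replicate 2. Among partners over 1000 bp the shares were 30.8% (25.8 to 36.2%) and 36.5% (33.1 to 40.0%), with intervals that overlap.

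Early shared peaks more often had other overlapping peaks beside them. Another overlapping peak lay within 12.5 kb of 273 of the 544, a share of 50.2% (95% Wilson interval 46.0 to 54.4%), against 30.5% of the others (29.5 to 31.5%). The median gap to the nearest overlapping peak was 12.4 kb for the early shared peaks and 34.6 kb for the others. Runs of 3 or more overlapping peaks, joined when edges lay within 12.5 kb, held 27.2% of the early shared peaks (23.6 to 31.1%) and 11.2% of the others (10.5 to 11.9%). Runs of 5 or more held 7.35% and 1.76%. At the other end, 41 early shared peaks (7.54%) and 17.5% of the others had no replicate 1 peak at all within 50 kb. The intervals of the 2 sets did not overlap in these shares. Peaks of one run count each other as neighbours, so these intervals are too narrow, and no test was made.

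The difference in neighbours was also present within classes of width. In the width classes of replicate 1 from 500, 850 and 1500 bp, 47.5%, 49.5% and 51.6% of the early shared peaks had an overlapping neighbour within 12.5 kb, against 28.4%, 33.7% and 36.5% of the others. The narrowest class held 19 of 40 early shared peaks with a neighbour, and its interval of 32.9 to 62.5% was wide. By the positions of replicate 2 the shares were 51.7% of the 549 partners (47.6 to 55.9%) and 30.5% of the 8955 others. Without the runs that held 3 or more early shared peaks they were 46.5% and 30.3%.

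**Figure D3:**
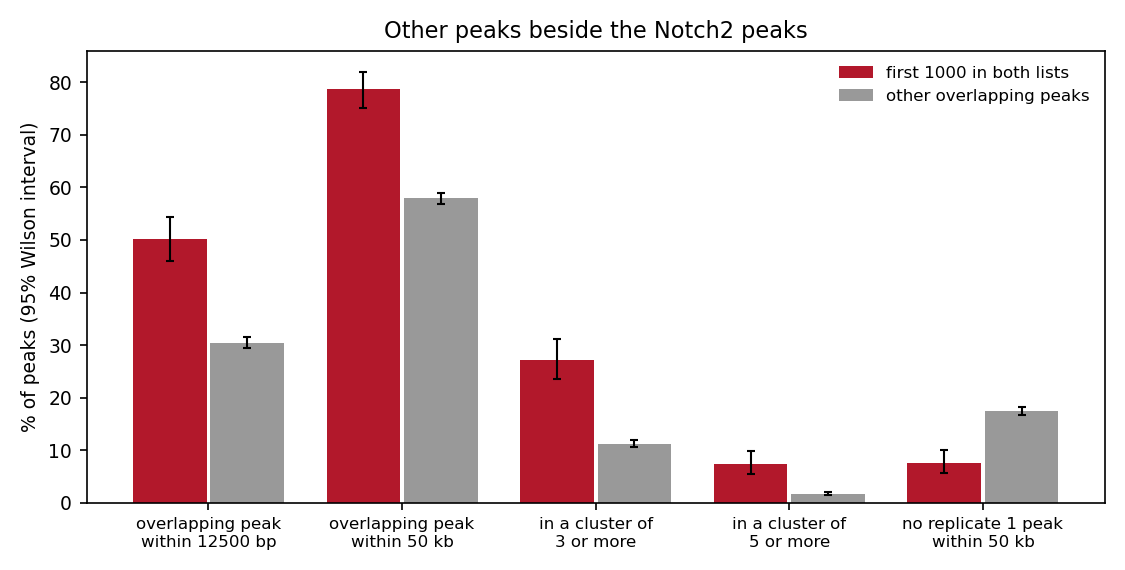
Bars give the percentage of the 544 early shared peaks (red) and of the 8925 other overlapping peaks (grey) with the neighbours named below each pair, and lines give 95% Wilson intervals. The red bars are higher for each kind of neighbour, as with 50.2% against 30.5% within 12.5 kb, and lower for peaks with no replicate 1 peak within 50 kb.

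Another early shared peak lay within 12.5 kb of 69 of the 544, or 12.7% (10.1 to 15.7%), against 3.72% of the others (3.35 to 4.13%). Early shared peaks thus stood near one another more often than other overlapping peaks stood near them, although most had no early shared neighbour. The median gap between nearest early shared peaks was 286 kb. For 172 of the 544 the nearest lay over 1 Mb away. The 544 stood in 497 separate runs or as single peaks, and 465 of these held 1 early shared peak. A further 21 held 2, and 11 held 3 or more.

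The run with most early shared peaks was on chromosome 2 from 75905872 to 75961310, with 5 among 9 overlapping peaks over 55.4 kb. From left to right they stood at places 243, 242, 13, 5 and 745 in replicate 1 and 431, 199, 11, 9 and 620 in replicate 2. The pair at places 13 and 5 was thus flanked on both sides by peaks that came far later in both lists. A run on chromosome 14 from 23570147 to 23606146 held 4 among 6 overlapping peaks, at places 37, 1, 139 and 3 in replicate 1 and 16, 1, 180 and 2 in replicate 2. A gap of 0.507 kb separated its peaks at places 37 and 1. On chromosome 7 a run from 78601800 to 78646254 held 4 among 7, at places 276, 65, 249 and 367 in replicate 1 and 36, 72, 390 and 100 in replicate 2. This run had no peak among the first 50 of replicate 1, and the order of its peaks differed between the replicates.

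**Figure D4:**
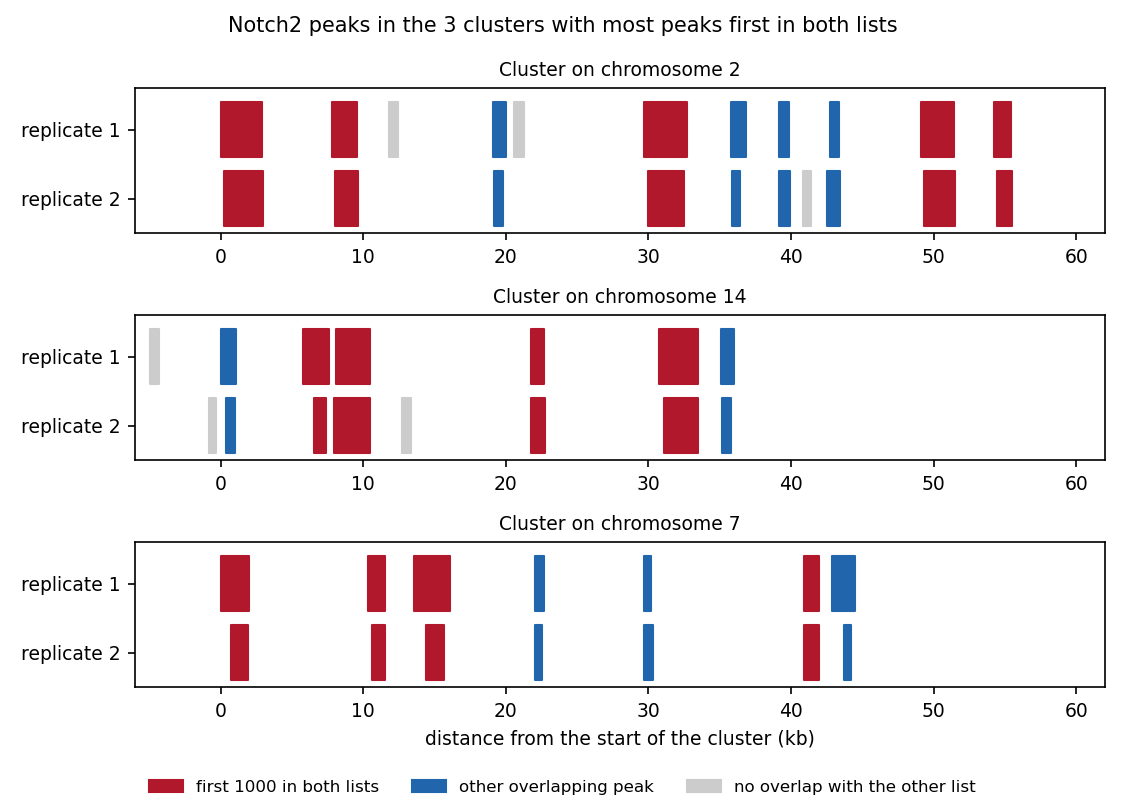
Peaks of the 3 runs with most early shared peaks, on chromosomes 2, 14 and 7, are drawn by their distance in kb from the start of the run, with replicate 1 above replicate 2 in each panel. Red marks early shared peaks and their partners, blue other overlapping peaks and grey peaks with no overlap, and the red blocks of the replicates lie over one another.

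Of the 8 runs with 3 early shared peaks, the 3 with the lowest sums of places are described. One was on chromosome 17 from 73403016 to 73425953. Its peaks stood at places 120, 28 and 14 in replicate 1 and 110, 42 and 8 in replicate 2, the same order in both. A second run on chromosome 14 from 23619158 to 23637556 had places 88, 473 and 30 in replicate 1 and 45, 182 and 10 in replicate 2. Its middle peak was the widest of the 3 in replicate 1, at 3058 bp, and yet the latest. On chromosome 10, a run from 22698266 to 22731336 had places 119, 547 and 39 in replicate 1 and 77, 44 and 17 in replicate 2. There the middle peak was the last in replicate 1 but not in replicate 2.

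Over larger stretches, 38 windows of 1 Mb on a fixed grid held 3 or more early shared peaks, and together they held 149 of the 544 (27.4%). A matching share was not computed for the other overlapping peaks, so this one is a description with no comparison. The window from 23000001 to 24000000 of chromosome 14 held most, with 13 of its 39 overlapping peaks early in both lists. Of these 13, 8 were among the first 100 of replicate 1 and 7 among the first 100 of replicate 2. They ran from 23088717 to 23953905, well beyond both runs described above. The next windows were on chromosome 7 from 78000001 to 79000000, with 8 of 43, and on chromosome 10 from 22000001 to 23000000, with 7 of 18. These windows were singled out after their values were seen.

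The share of overlapping peaks that were early in both lists varied between chromosomes around the value of 5.75% for all. It was 9.60% on chromosome 8 (51 of 531; 95% Wilson interval 7.38 to 12.4%) and 8.34% on chromosome 2 (63 of 755; 6.58 to 10.5%). It was 3.38% on chromosome 4 (16 of 473; 2.09 to 5.42%) and 2.42% on chromosome 19 (6 of 248; 1.11 to 5.18%). In these 4 the interval did not hold the value for all chromosomes, and in the other 16 it did. Some early shared peaks stood in the same run, so these intervals are too narrow. Without chromosomes 2 and 8, 48.6% of the early shared peaks had an overlapping neighbour within 12.5 kb, against 30.5% of the others.

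Chromosome X held 3 early shared peaks, or 0.551% of the 544 (95% Wilson interval 0.188 to 1.61%), against 1.34% of the others (1.13 to 1.61%). The intervals overlap, and with 3 peaks a difference was not tested. At a limit of 2000 places the share was lower, at 0.270% of 1111 (0.0919 to 0.791%). That limit keeps all 3 peaks, so the lower share came with a larger set and not with fewer peaks. The share of the others was not computed at that limit. The peak from 134638178 to 134640502 had widths of 2325 and 957 bp in replicates 1 and 2, at places 677 and 303. The peak from 143762331 to 143763347 measured 1017 and 968 bp, at places 515 and 376. The third, from 160590552 to 160592306, measured 1755 and 1718 bp, at places 405 and 441. All 3 stood beyond the first 300 of both lists.

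**Figure D5:**
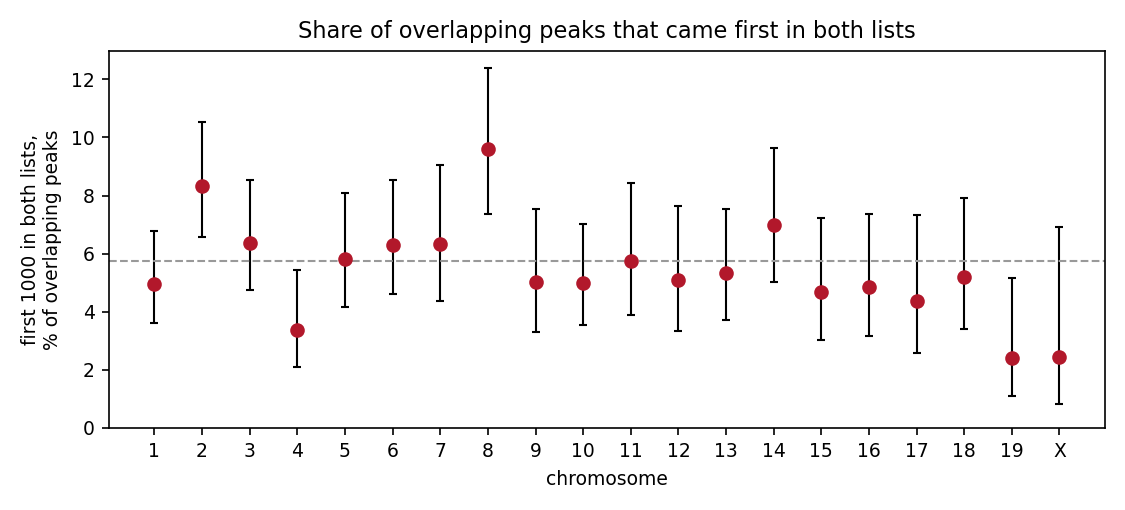
Points give, for each chromosome, the percentage of overlapping replicate 1 peaks that were early in both lists, with 95% Wilson intervals, and the dashed line marks 5.75% for all chromosomes. Chromosomes 8 and 2 lie above the line with their intervals, chromosomes 4 and 19 below it.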

How the data were processed

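Notch2 ChIP-seq of embryonic kidney had 2 samples with peak lists. The submitters' processing notes name Bowtie, SAMtools, HOMER and the mm9 build, with no role or setting. How rows were ordered is likewise not given in the sources used here. Per the file contents, the authors deposited 1 list per sample with 3 columns (chromosome, start, end), so depth per sample is unknown. Positions are given on mm9 and counted from 1. No mm9 sequence or annotation was used, so motifs, promoters and gene lists were not analysed here.

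Exact repeats (242 and 480 rows) were dropped in file order. Where an early shared peak overlapped more than one early partner, the one with the largest overlap was used. Later replicate 2 peaks that it also overlapped were not considered, even where their overlap was larger. For the other overlapping peaks, the largest overlap was taken among all replicate 2 peaks. Comparisons of partner widths, width ratios, centres, edges and repeats between these sets therefore rest on different pairing rules. The effect of this difference was not tested. Medians, 95% Wilson intervals and Spearman rho are descriptions. The members, the comparisons and the limits were chosen with earlier results of these data known. Regions named were the 12 with the lowest sum of places, both extremes of the width ratio, the 6 runs with most early shared peaks (ties by the lowest sum of places) and 2 peaks on each side of the limit. Alternatives were tried for the limit, the overlap, the repeats, the ranking and the joining distance. On simulated data all 300 planted peaks were recovered in 5 of 5 lists, with overlaps equal to those of bedtools 2.31.1. The planted peaks met the rule by construction, so this checked the computation and not the rule. Values were computed with pandas 2.3.3 and numpy 2.4.6 in Python 3.11.15, intervals with scipy 1.17.1 and plots with matplotlib 3.10.9.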

Additional observations from a re-analysis of the deposited data

How the results depend on the processing

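The number of early shared peaks followed the limit, with 270 at the first 500 places and 1111 at the first 2000, and ranking by width in place of list order gave 272, of which 142 were among the 544. With 500 places the median widths were 1475 bp and 1210 bp and 32.6% lay in runs of 3 or more overlapping peaks. With 2000 places they were 1191 bp and 926 bp, the centres lay 94.0 bp apart, 16.0% had another early shared peak nearby and 23.3% lay in such runs. Overlap of 50% of both peaks kept 481 of the 544, with a median replicate 1 width of 1248 bp and centres 96.5 bp apart. The share with another early shared peak nearby was 6.43%, 16.2% and 21.9% at 5, 25 and 50 kb, and the share in runs 8.82% and 41.5% at 5 and 25 kb, lower and higher by construction. An overlapping neighbour lay within 50 kb of 78.7%. The cause of the shifts with the limit and the overlap was not tested. Of 42 alternatives 23 stayed within the interval of the value reported, or for counts within 1.5 times, among them all 7 that kept repeated rows. The 7 alternatives for overlapping neighbours were added after the data were seen. No paired analysis was possible because only the Notch2 group had peak lists, and leaving out a replicate leaves no overlap. Unknown depth and the unexplained order of rows limit any reading of early places as strong occupancy.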
